A study of Mus musculus with 10 samples.

Results

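The genes described here are 44 non-collagen components and modifiers of the extracellular matrix, taken from a table of 56832 genes by their symbols. They are 7 small leucine-rich proteoglycans, 12 adhesive and matricellular glycoproteins, the large proteoglycan versican, 11 genes of elastic fibres and collagen cross-linking, 8 genes of the basement membrane and 5 matrix proteases and their inhibitors. All 44 symbols were found in the table. The genes were listed with results of the GFP+ against GFP− comparison already known, so their counts of calls and their p-values in that comparison are given as a description and support no further statement.

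RNA was sequenced from cardiomyocytes of Sprr1a-GFP mice that had a myocardial infarction at 12 weeks of age, with hearts digested 5 days later and the cells sorted by flow cytometry. GFP+ libraries are labelled border zone cardiomyocytes, from muscle next to the infarct, and GFP− libraries are labelled remote zone cardiomyocytes, from muscle away from it. Each of 5 mice gave 1 GFP+ and 1 GFP− library, and all carry the reporter, the infarct and the title word Hetz, and no uninjured or reporter-free group is among the samples used here. The titles of the GFP+ libraries name a DAPI-negative and a DAPI-positive gate, while those of the GFP− libraries name a DAPI-negative gate alone, so gate and GFP group cannot be told apart. The mice carry identifiers of 2 series, 17C (2 mice) and 21A (3 mice), whose titles are worded differently. Values listed per library below follow the order 17C1, 17C2, 21A4, 21A5, 21A7.

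The extracellular matrix of the heart has 2 compartments that different cells supply. The interstitial matrix, laid down mainly by fibroblasts, holds collagen fibrils whose diameter and spacing are set by small leucine-rich proteoglycans such as decorin and biglycan, elastic fibres built on fibrillin, and matricellular proteins such as periostin and tenascin-C that appear after injury. The basement membrane lies directly on each muscle cell and is woven from laminins, which are trimers of an alpha, a beta and a gamma chain, with nidogen and perlecan linking them to type IV collagen; muscle cells hold on to it through integrins and dystroglycan.

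Total counts per library ran between 12244373 and 38879965, and the share of mitochondrially encoded genes between 9.20% and 91.2%, both ends in mouse 21A7 (91.2% in its GFP+ library, 9.20% in its GFP− library). Counts outside the mitochondrial genes were 3417972 to 16918067 per library, and a count of 3 corresponded to 0.0542 to 0.326 CPM, the read count scaled to a common library size with TMM factors. Sprr1a, the reporter gene, had 158 to 317 CPM in GFP+ libraries and 0.191 to 8.98 CPM in GFP− libraries, higher in GFP+ in all 5 mice. Summed over 11 cardiomyocyte markers, the level was 11188 to 43183 CPM in GFP+ and 4178 to 52747 CPM in GFP− libraries, the lowest of each in mouse 21A7. The 15 fibroblast markers summed to 255, 319, 1990, 1620 and 5074 CPM in GFP+ libraries, against 126, 281, 6220, 9912 and 11876 CPM in GFP− libraries. In the GFP− library of 21A7 summed fibroblast markers stood above summed cardiomyocyte markers, although its label is cardiomyocyte. In bulk samples fewer cells of a type and less RNA per cell cannot be told apart.

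Of the 44 genes, 43 had enough counts to be tested among 12115 genes, Comp being the exception. In edgeR's quasi-likelihood test with the mouse as a block, 5 of the 43 were lower in GFP+ cells at an adjusted p under 0.05 and 0 were higher, with 14 lower and 1 higher at an unadjusted p under 0.05. Over all tested genes 0.858% were called at the adjusted threshold, 0.173% lower and 0.685% higher. For counts at an unadjusted p, here and below, no share over all genes is given, so they cannot be set against other genes. DESeq2 called 11 of the 43 lower and 1 higher, where it called 3.64% of all genes lower and 3.75% higher. The 5 were Cilp, Prelp, Sparcl1, Ogn and Fbln1. Over the 43 genes, 36 log2 fold changes lay below 0 and 7 above, with a median of -0.88, beside -0.04 over all tested genes. Without the block, 0 of the 43 were called, with 3 lower and 1 higher at an unadjusted p under 0.05, and the adjusted p of the 5 genes ran between 0.128 for Ogn and 0.688 for Cilp. At that setting 0.0825% of all genes were called, 0 of them lower. Without mouse 21A7, Cilp and Sparcl1 were called (0.588% of all genes), and without 17C1 the count was 11 (1.38% of all genes). Without 17C2, 21A4 or 21A5 in turn it was 0, where 0, 1 and 6 of all tested genes were called.

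Promoters are shown for 4 of the 5 genes that were lower together, and beside them for Efemp1, whose difference ran the other way, and for Lamb2, a laminin chain whose level differed little. Each is the 250 bases before the start of the gene in RefSeq on build GRCm38.p6, whereas the counts were made on GRCm39, and Sparcl1 had no entry. They lie at chr9:65264930-65265179 (plus strand), chr13:49607765-49608014 (plus strand), chr1:133921402-133921651 (minus strand), chr15:85205699-85205948 (plus strand), chr11:28852955-28853204 (plus strand) and chr9:108479612-108479861 (plus strand), and are written 5′ to 3′ on the strand of the gene. For Fbln1, 2 starts are listed and the first was used. Capitals mark matches to 4 motifs, each searched on both strands. The core promoter box is spelled TATAAA here. The GC box of Sp factors is spelled GGGCGG. The site of AP-1, the Fos and Jun dimer, is spelled TGANTCA, a loose spelling that takes in more than TGACTCA and TGAGTCA. The site of TEAD factors is spelled GGAATG.
Cilp: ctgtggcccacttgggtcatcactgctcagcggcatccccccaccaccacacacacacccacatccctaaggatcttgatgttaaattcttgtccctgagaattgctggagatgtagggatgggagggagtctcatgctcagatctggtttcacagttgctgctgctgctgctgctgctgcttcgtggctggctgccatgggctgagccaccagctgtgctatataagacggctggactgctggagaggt
Ogn: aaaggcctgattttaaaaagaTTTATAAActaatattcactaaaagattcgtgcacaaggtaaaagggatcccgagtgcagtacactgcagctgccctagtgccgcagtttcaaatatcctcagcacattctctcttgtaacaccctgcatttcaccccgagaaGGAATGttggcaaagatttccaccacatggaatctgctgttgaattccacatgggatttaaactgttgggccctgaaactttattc
Prelp: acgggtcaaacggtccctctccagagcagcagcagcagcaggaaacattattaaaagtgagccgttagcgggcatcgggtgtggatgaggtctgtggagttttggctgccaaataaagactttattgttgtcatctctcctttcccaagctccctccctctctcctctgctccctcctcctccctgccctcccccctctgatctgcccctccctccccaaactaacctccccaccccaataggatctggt
Fbln1: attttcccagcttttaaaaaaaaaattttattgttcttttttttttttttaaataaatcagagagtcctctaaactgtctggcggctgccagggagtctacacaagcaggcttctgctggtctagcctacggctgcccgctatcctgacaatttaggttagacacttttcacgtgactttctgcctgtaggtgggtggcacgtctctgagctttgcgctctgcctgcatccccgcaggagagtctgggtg
Efemp1: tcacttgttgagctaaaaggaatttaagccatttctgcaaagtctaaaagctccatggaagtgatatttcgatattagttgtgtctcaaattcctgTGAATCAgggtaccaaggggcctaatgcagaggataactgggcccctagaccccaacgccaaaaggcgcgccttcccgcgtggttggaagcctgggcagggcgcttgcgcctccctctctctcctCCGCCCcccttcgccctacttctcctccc
Lamb2: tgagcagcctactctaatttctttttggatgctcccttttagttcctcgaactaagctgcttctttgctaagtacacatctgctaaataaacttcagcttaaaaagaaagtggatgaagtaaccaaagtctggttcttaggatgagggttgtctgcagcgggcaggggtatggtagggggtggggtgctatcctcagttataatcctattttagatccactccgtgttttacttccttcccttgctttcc
Ogn had 2 overlapping matches to the core promoter box, 229 and 227 bases before its start, and a TEAD match at 86 bases. Efemp1 had a GC box match at 29 bases and a match to the AP-1 spelling (TGAATCA) at 154 bases before its start. The windows of Cilp, Prelp, Fbln1 and Lamb2 held no match to the 4 motifs as spelled here. The spelling TATAAA leaves out variants such as tatataag, which stands near the end of the Cilp window. Promoters were listed for 28 of the 44 genes, of which 5 held the core promoter box, 16 the GC box, 2 the AP-1 site and 3 the TEAD site. Among 27025 promoters of the same length, 13.0% held the core promoter box, 32.9% the GC box, 6.87% the AP-1 site and 12.6% the TEAD site.

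**Figure D1:**
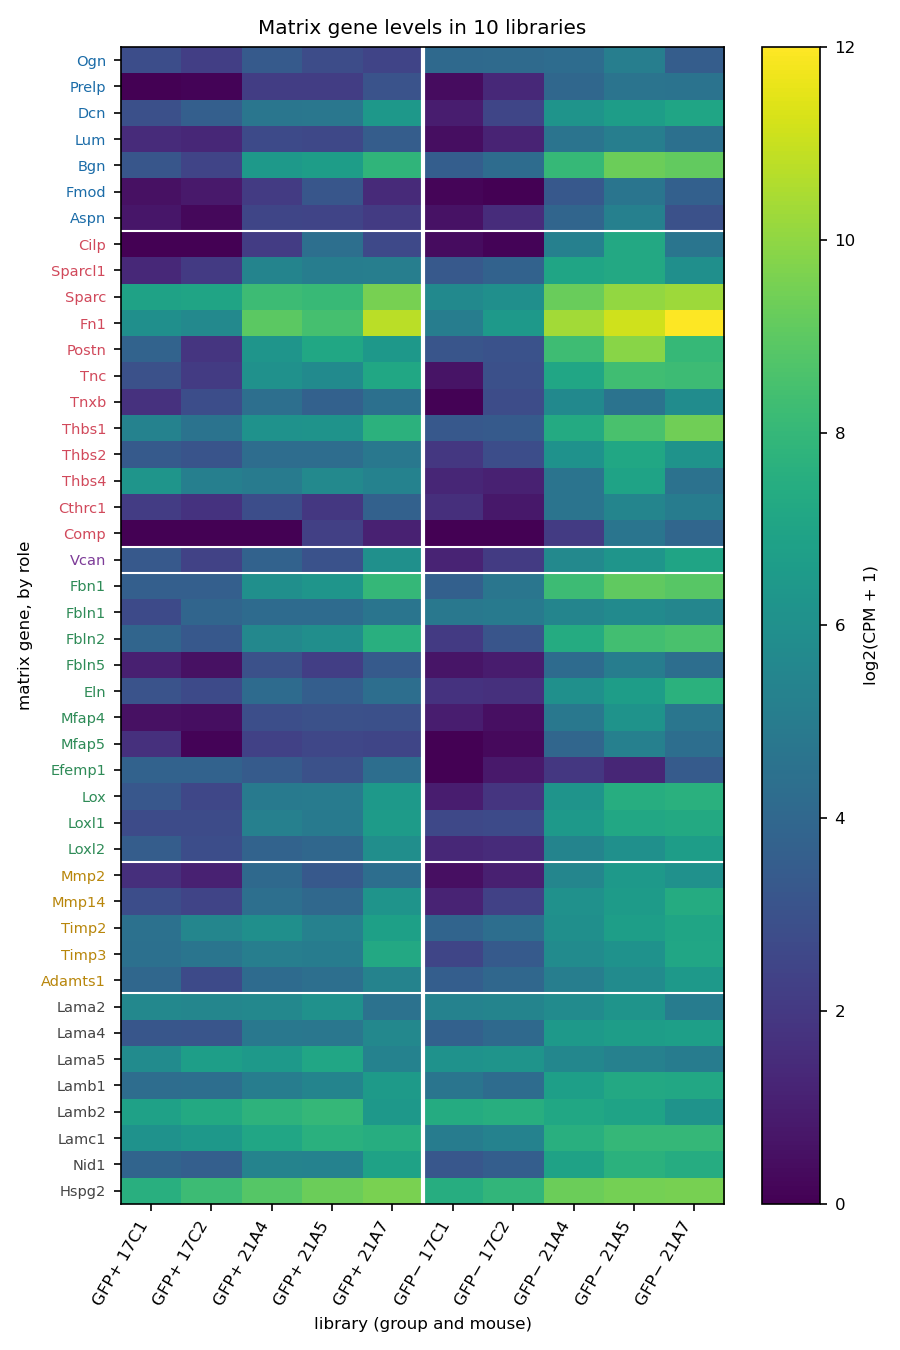
Levels of the 44 matrix genes as log2(CPM + 1), 1 row per gene and 1 column per library, GFP+ libraries left of the white line and GFP− libraries right of it. Rows run by role from the small leucine-rich proteoglycans at the top through glycoproteins, versican, elastic fibre genes and proteases to the basement membrane genes at the bottom. Most rows above the last block are dark in the 17C columns of both groups, while Lama2, Lama5 and Lamb2 change little across columns.

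Among the small leucine-rich proteoglycans, edgeR called 2 of 7 lower in GFP+ cells and 0 higher, beside 0.173% and 0.685% of all tested genes. At an unadjusted p under 0.05, 4 of the 7 were lower and 0 higher. DESeq2 called 4 lower and 0 higher, beside 3.64% and 3.75% of all genes. The median log2 fold change of the 7 was -1.59. Ogn, which encodes osteoglycin (mimecan), had 6.09, 3.62, 9.44, 5.92 and 4.48 CPM in GFP+ libraries, against 16.2, 16.5, 18.2, 33.8 and 10.5 CPM in GFP− libraries. All 5 GFP+ values lay below all 5 GFP− values. The fitted log2 fold change was -1.65 ± 0.30 (SE, n = 5 mice; edgeR adjusted p = 0.0480). Prelp, a proteoglycan that anchors basement membrane perlecan to collagen, had 0, 0.0952, 3.49, 3.54 and 7.47 CPM in GFP+ libraries, against 0.299, 1.57, 15.1, 23.4 and 23.1 CPM in GFP− libraries. It was lower in GFP+ cells in every mouse, at -2.41 ± 0.40 on the log2 scale (edgeR adjusted p = 0.0424), but in the 17C mice this rests on 0 and 1 counts in GFP+ against 5 and 20 in GFP− libraries.

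Bgn (biglycan), the most abundant of these genes, had 8.16, 4.48, 90.1, 102 and 229 CPM in GFP+ libraries, against 11.1, 17.95, 264, 629 and 563 CPM in GFP− libraries. It was lower in GFP+ cells in 5 of 5 mice without passing the threshold (log2 fold change -1.59 ± 0.34, edgeR adjusted p = 0.0845). Dcn (decorin) had 6.52, 11.3, 25.1, 26.4 and 83.1 CPM in GFP+ libraries, against 0.957, 4.72, 74.0, 103 and 132 CPM in GFP− libraries. Its 17C values were higher in GFP+ cells and its 21A values lower, so the fold change over all mice was -0.21 ± 0.68. Lum, Fmod and Aspn, the other members of the family, peaked at 10.7, 8.36 and 4.68 CPM in GFP+ and at 34.6, 24.6 and 36.3 CPM in GFP− libraries, and none passed the threshold over the 5 mice.

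Among the adhesive and matricellular glycoproteins 2 of 11 tested genes, Cilp and Sparcl1, were called lower with edgeR and 0 higher. Over all tested genes these shares were 0.173% and 0.685%. Of the 11 log2 fold changes, 10 lay below 0. At an unadjusted p under 0.05, 3 were lower and 0 higher. DESeq2 called 3 lower and 0 higher, beside 3.64% and 3.75% of all genes. Cilp encodes a cartilage intermediate layer protein that cardiac fibroblasts make after injury. It had 0, 0, 3.33, 20.02 and 5.23 CPM in GFP+ libraries, against 0.299, 0.0787, 36.4, 149 and 24.1 CPM in GFP− libraries. The gap was wide in the 3 21A mice, while the 17C mice gave 0 and 0 counts in GFP+ against 5 and 1 counts in GFP− libraries, near the limit of detection. Over all mice the log2 fold change was -2.89 ± 0.34 (edgeR adjusted p = 0.0206). Sparcl1 (hevin), a SPARC relative that also marks vessels, had 1.63, 3.05, 41.5, 32.7 and 33.7 CPM in GFP+ libraries, against 9.33, 12.8, 131, 151 and 61.1 CPM in GFP− libraries. It was lower in GFP+ cells in both series and in 5 of 5 mice (log2 fold change -1.84 ± 0.28, edgeR adjusted p = 0.0373).

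The 2 most abundant glycoproteins were Fn1 and Sparc. Fn1 (fibronectin), on which cells pull through integrins, had 61.6, 49.8, 506, 349 and 1719 CPM in GFP+ libraries, against 32.5, 85.0, 1310, 2258 and 4096 CPM in GFP− libraries. Sparc, a collagen-binding matricellular protein, had 119, 126, 300.1, 268 and 732 CPM in GFP+ libraries, against 51.4, 61.6, 609, 1068 and 1223 CPM in GFP− libraries. Sparc was higher in GFP+ cells in both 17C mice and lower in the 3 21A mice, while Fn1 was lower in 4 of 5 mice, 17C1 being the exception. Neither passed the threshold over the 5 mice (edgeR adjusted p = 0.384 for Fn1 and 0.831 for Sparc). Versican (Vcan), the large hyaluronan-binding proteoglycan of provisional matrix, followed the pattern of Sparc, with 9.13, 4.09, 12.5, 7.25 and 64.9 CPM in GFP+ libraries, against 1.26, 3.31, 48.7, 76.7 and 129 CPM in GFP− libraries.

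The injury-associated glycoproteins were scarce in the 17C mice of both groups. Postn (periostin), a product of activated fibroblasts, had 2.67 to 141 CPM in GFP+ and 7.24 to 939.6 CPM in GFP− libraries, with a log2 fold change of -1.49 ± 0.49 (edgeR adjusted p = 0.203). Tnc (tenascin-C) had 3.24 to 141 CPM in GFP+ and 0.538 to 319 CPM in GFP− libraries, and its relative Tnxb 2.28 to 20.3 CPM in GFP+ and 0.0598 to 55.4 CPM in GFP− libraries. Cthrc1, which activated fibroblasts secrete, had 2.38 to 12.1 CPM in GFP+ and 0.709 to 42.6 CPM in GFP− libraries. For each of these the groups overlapped. Comp, a pentameric thrombospondin that binds collagen, was left untested, with 0, 0, 0, 3.77 and 1.17 CPM in GFP+ libraries, against 0, 0, 3.28, 24.7 and 14.6 CPM in GFP− libraries.

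Thbs4, chosen after its values were seen, encodes thrombospondin-4, which in mouse heart muscle acts in the endoplasmic reticulum stress response as well as in the matrix. It had 74.6, 35.2, 31.2, 48.6 and 38.7 CPM in GFP+ libraries, against 1.44, 1.18, 23.6, 123 and 22.3 CPM in GFP− libraries. GFP+ levels stayed within a narrow band, whereas GFP− levels differed widely between mice. Over all mice the log2 fold change was 1.79 ± 1.11 (edgeR adjusted p = 0.495), higher in GFP+ cells in 4 mice and lower in 21A5. Its relatives Thbs1 and Thbs2 had fold changes of -0.49 ± 0.72 and -0.94 ± 0.65 on the log2 scale.

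**Figure D2:**
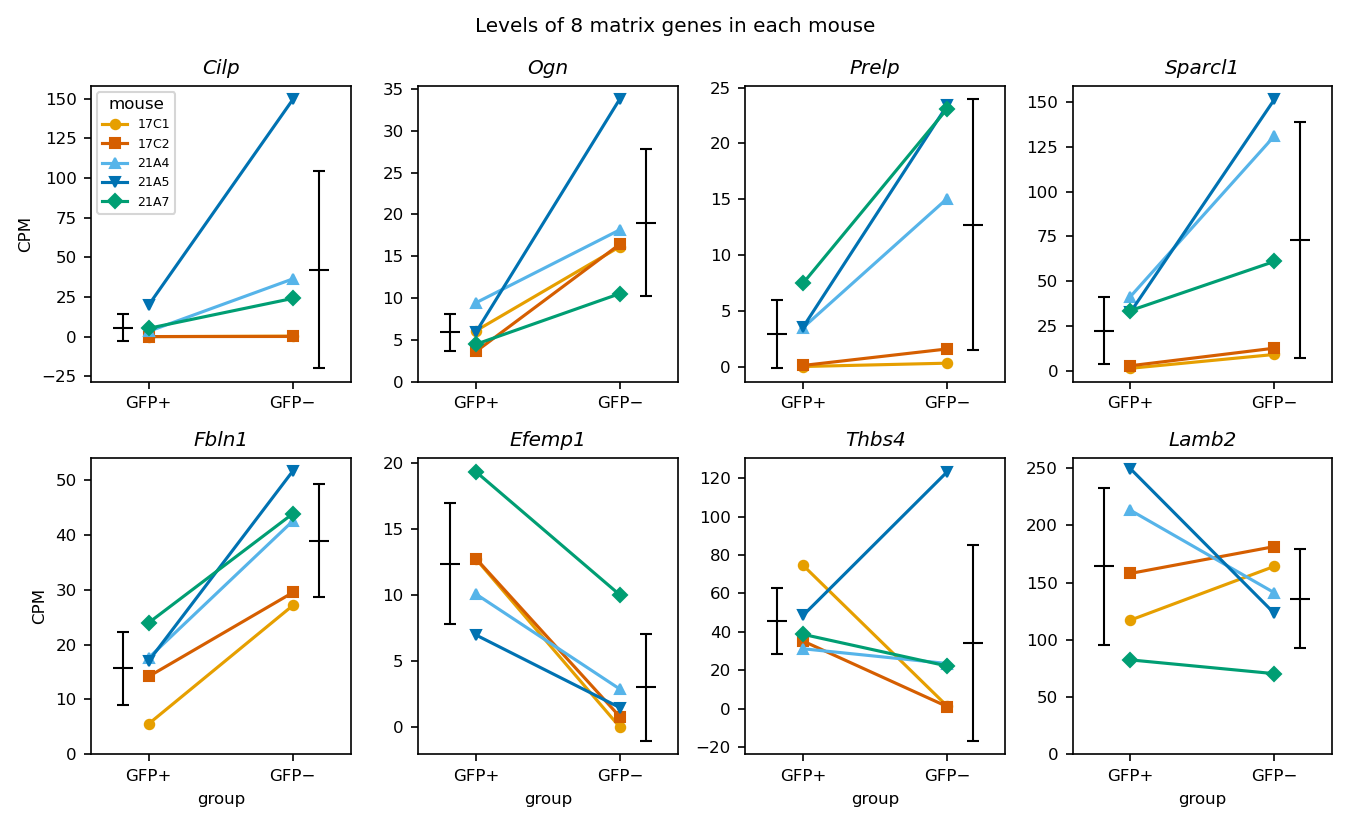
CPM of 8 matrix genes on a linear axis, GFP+ left and GFP− right, with a line for each of the 5 mice; black marks are the mean and the whiskers the SD (n = 5 per group). Every line rises to the right for Ogn, Prelp, Sparcl1 and Fbln1 and falls for Efemp1, the 17C lines of Cilp lie near 0, and the lines of Thbs4 and Lamb2 cross.

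Elastic fibre and cross-linking genes gave 1 edgeR call among 11, a lower one, beside 0.173% of all tested genes called lower. At an unadjusted p under 0.05, 4 were lower and 1 higher. DESeq2 called 3 lower and 1 higher, beside 3.64% and 3.75% of all genes. Fbln1 (fibulin-1), which binds elastin cores, fibronectin and laminin, had 5.55, 14.2, 17.6, 17.03 and 24.0 CPM in GFP+ libraries, against 27.2, 29.5, 42.6, 51.7 and 43.9 CPM in GFP− libraries. The 2 groups did not overlap, which was the case for 2 of the 43 genes, Fbln1 and Ogn, and for 0.916% of all tested genes in this direction and 1.54% in the other. The log2 fold change was -1.41 ± 0.25 (edgeR adjusted p = 0.0484). Fbn1 (fibrillin-1), the scaffold of microfibrils, had 11.3, 11.5, 61.2, 75.9 and 257 CPM in GFP+ libraries, against 11.9, 25.1, 299, 544 and 475 CPM in GFP− libraries. Fbln2, a fibulin of vessels and injured heart, had 13.9, 8.86, 47.7, 60.6 and 190 CPM in GFP+ libraries, against 3.11, 7.95, 164, 334 and 379 CPM in GFP− libraries. Fbn1 was lower in GFP+ cells in 5 of 5 mice, narrowly in 17C1, and Fbln2 in the 3 21A mice. Mfap4, a microfibril-associated protein, had 0.435, 0.381, 6.42, 6.84 and 6.51 CPM in GFP+ libraries, against 0.957, 0.394, 27.0, 70.1 and 25.0 CPM in GFP− libraries (log2 fold change -2.06 ± 0.42, edgeR adjusted p = 0.0742). In the 17C mice its values rest on 4 and 4 counts in GFP+ against 16 and 5 in GFP− libraries. Lox, Loxl1 and Loxl2, the oxidases that cross-link collagen and elastin, had log2 fold changes of -0.43 ± 0.77, -0.83 ± 0.37 and -0.19 ± 0.76. Eln, the elastin gene, had 5.52 to 19.3 CPM in GFP+ and 2.13 to 203 CPM in GFP− libraries, the highest in 21A7. The microfibril gene Mfap5 and the elastin-binding fibulin Fbln5 stayed at or below 4.96 and 9.39 CPM in GFP+ libraries, and reached 36.2 and 32.8 CPM in GFP− libraries.

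Efemp1 (fibulin-3) was the sole gene of the 43 that was higher in GFP+ cells in all 5 mice, beside 9 that were lower in all 5. Over all tested genes, 9.14% were higher and 8.02% lower in every mouse. It had 12.7, 12.8, 10.1, 6.98 and 19.3 CPM in GFP+ libraries, against 0, 0.787, 2.88, 1.48 and 9.996 CPM in GFP− libraries. The log2 fold change was 2.80 ± 0.83 and did not pass the threshold (edgeR adjusted p = 0.173). DESeq2 called it, with an adjusted p of 0.00318. Efemp1 is also made by mesothelial cells. The 6 mesothelial markers Wt1, Msln, Upk3b, Upk1b, Lrrn4 and Gpm6a summed to 114, 132, 86.9, 60.8 and 286 CPM in GFP+ libraries, against 0.718, 15.6, 33.3, 22.1 and 154 CPM in GFP− libraries. In the GFP− library of 17C1, 4 of the 6 were at 0, as was Efemp1. The sum was higher in GFP+ in 5 of 5 mice, for which an exact two-sided sign-flip test over mice gave p = 0.0625, the smallest that 5 pairs allow (adjusted p = 0.281 over 6 marker lists). Whether these markers have a part in the Efemp1 difference was not tested.

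**Figure D3:**
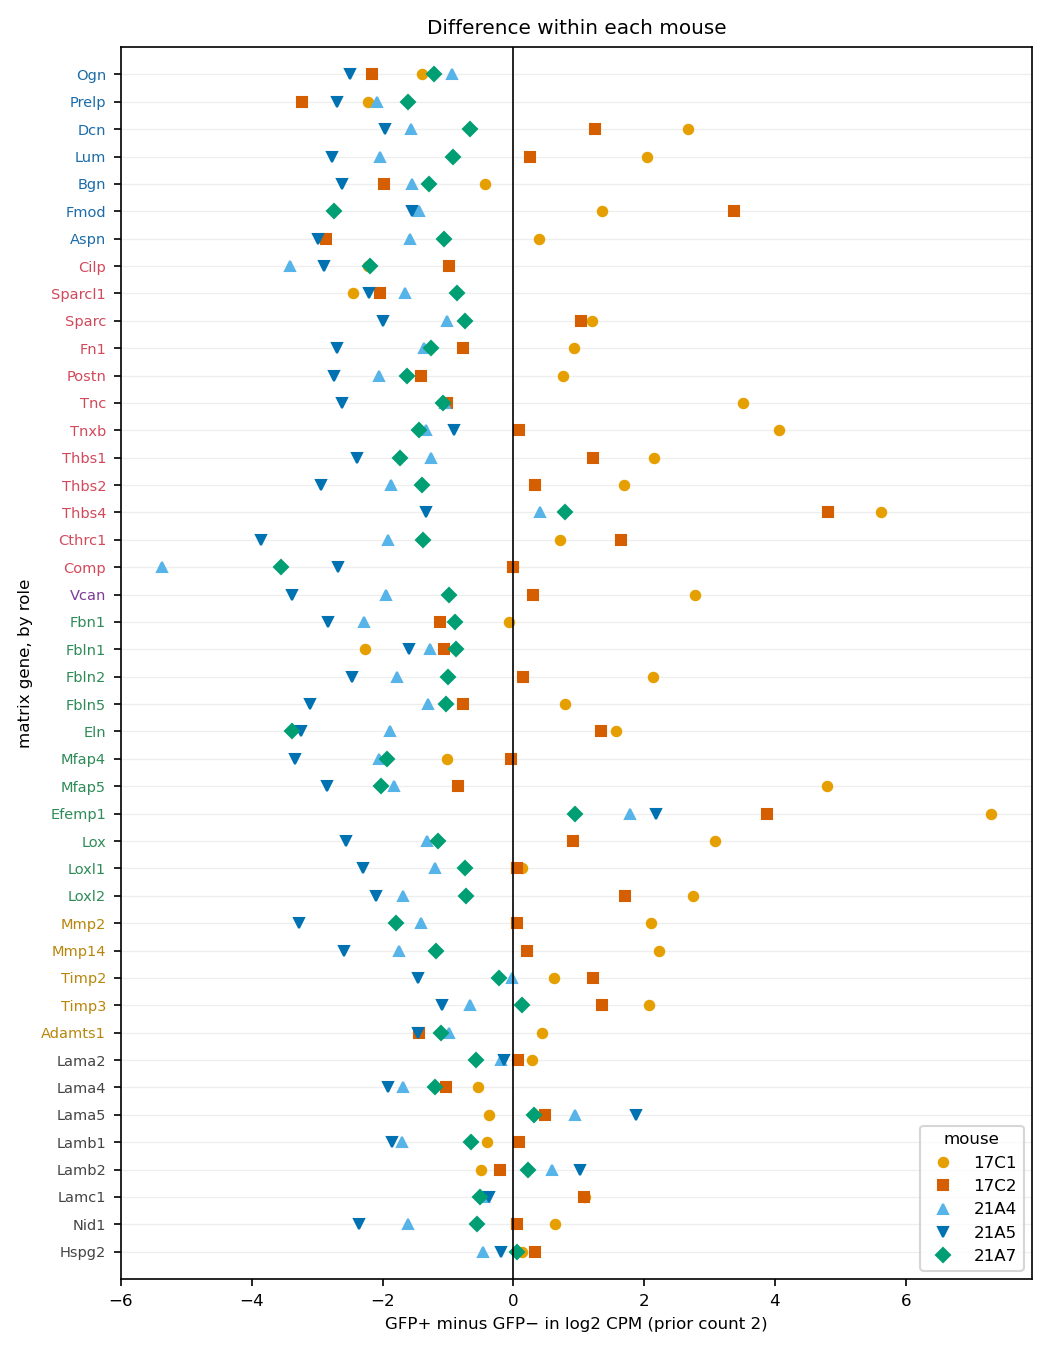
GFP+ minus GFP− difference in log2 CPM (prior count 2) for each of the 44 genes, 1 symbol per mouse, with genes grouped by role and a line at 0. The 21A symbols lie mostly left of 0 and the 17C symbols spread to the right, except for rows such as Ogn, Prelp, Sparcl1 and Fbln1. The rows of Hspg2 and Lama2, near the bottom, have the smallest ranges over mice, 0.80 and 0.85.

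The proteases and inhibitors gave 0 calls among 5, both with edgeR and with DESeq2, and 1 gene, Adamts1, had an unadjusted p under 0.05. Mmp2 (gelatinase A) had 2.07, 1.14, 16.3, 9.09 and 19.2 CPM in GFP+ libraries, against 0.419, 1.10, 43.8, 89.2 and 66.7 CPM in GFP− libraries. Mmp14, the membrane-bound protease that activates it, had 4.57 to 72.4 CPM in GFP+ and 1.26 to 164 CPM in GFP− libraries. Adamts1, a protease that cuts versican, had 15.0, 5.52, 17.1, 19.7 and 39.7 CPM in GFP+ libraries, against 11.1, 15.1, 34.0, 54.3 and 85.3 CPM in GFP− libraries (log2 fold change -0.93 ± 0.31, edgeR adjusted p = 0.206). The groups overlapped for both inhibitors. Timp2 had 20.99, 44.8, 61.8, 38.0 and 114 CPM in GFP+ libraries, against 13.6, 19.1, 62.9, 105 and 133 CPM in GFP− libraries. Timp3, which is held in the matrix, had 20.2, 24.6, 34.4, 31.6 and 151 CPM in GFP+ libraries, against 4.73, 9.53, 54.3, 67.7 and 138 CPM in GFP− libraries. Their log2 fold changes were 0.03 ± 0.37 and 0.33 ± 0.47, and with library totals alone -1.15 and -0.91, or 0.0041 and 0.24 above the median of all genes at that scaling.

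None of the 8 basement membrane genes passed the threshold over the 5 mice with edgeR, and 2 had an unadjusted p under 0.05. DESeq2 called 1 of the 8, Lama4, lower, beside 3.64% of all genes. The median log2 fold change of the 8 was -0.07. Lamb2, the beta-2 chain of muscle laminin, had 117, 158, 213, 249.7 and 82.4 CPM in GFP+ libraries, against 164, 181, 141, 123 and 70.3 CPM in GFP− libraries. Hspg2 (perlecan) had 192, 303, 456, 629.9 and 773 CPM in GFP+ libraries, against 175, 240.4, 631, 719 and 742 CPM in GFP− libraries. The groups overlapped for both, with log2 fold changes of 0.23 ± 0.28 and -0.03 ± 0.27. Scaled by library totals alone, which moved the median of all genes to -1.15, that of Lamb2 was -0.83, or 0.32 above that median. Lama4, the alpha chain of laminins of vessels, had 8.26, 7.90, 26.8, 26.5 and 46.8 CPM in GFP+ libraries, against 12.1, 16.1, 86.7, 101 and 108 CPM in GFP− libraries, lower in GFP+ cells in every mouse (log2 fold change -1.29 ± 0.26, edgeR adjusted p = 0.0690). Lamb1 had 18.6, 19.2, 32.7, 41.6 and 92.9 CPM in GFP+ libraries, against 24.6, 18.2, 107, 150.3 and 146 CPM in GFP− libraries (-0.91 ± 0.33, edgeR adjusted p = 0.245). In GFP− libraries 5 of the 8 genes, Lama4, Lamb1, Lamc1, Nid1 and Hspg2, were higher in every 21A mouse than in both 17C mice, as was the sum of fibroblast markers. Lama5, Lamb2 and Lama2 were not. Lama2, the alpha chain of muscle laminin, had 47.6, 44.3, 48.3, 65.7 and 21.9 CPM in GFP+ libraries, against 39.1, 42.2, 55.1, 72.3 and 32.4 CPM in GFP− libraries.

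Per kilobase of exon, which allows levels of different genes to be set side by side, Hspg2 was at 33.1 ± 16.6 CPM per kb in GFP+ and 35.3 ± 19.2 in GFP− libraries, and Lamb2 at 29.2 ± 12.1 in GFP+ and 24.2 ± 7.62 in GFP− libraries (n = 5 each, ± SD). Lamc1, the most widespread gamma chain, followed with 17.4 ± 7.35 in GFP+ and 20.1 ± 14.5 in GFP− libraries. Among alpha chains Lama5 was at 7.39 ± 3.41 CPM per kb in GFP+ and 4.53 ± 1.66 in GFP− libraries, Lama2 at 4.64 ± 1.60 in GFP+ and 4.91 ± 1.61 in GFP−, and Lama4 at 3.85 ± 2.67 in GFP+ and 10.7 ± 7.74 in GFP− libraries. The spreads of the 3 alpha chains overlap within each group, and which of them stood highest differed between mice of the same group. Exon lengths come from GENCODE on build GRCm38 and not from the authors' annotation.

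Over the 10 libraries, the highest CPM of each laminin was 3.30 times (Lama2), 3.55 times (Lamb2), 4.27 times (Lama5), 7.97 times (Lamc1), 8.27 times (Lamb1) or 13.6 times (Lama4) the lowest. The stromal genes are the small leucine-rich proteoglycans, glycoproteins, versican and the elastic fibre and cross-linking genes. Among those above 0 in every library this ratio ran between 9.33 times for Fbln1 and 927 times for Tnxb, and only Fbln1 and Ogn (9.35 times) lay below Lama4. The lowest Tnxb value is 1 count, in the GFP− library of 17C1, where 3 counts are 0.179 CPM. That of Aspn is 2 counts, in the GFP+ library of 17C2, while the lowest of Lama4 is 83 counts. Counting error therefore enters the largest of these ratios. Summed over 31 stromal genes, the level was 443, 355, 1541, 1445 and 4197 CPM in GFP+ libraries, against 202, 321, 4162, 8142 and 9361 CPM in GFP− libraries. The 6 laminins summed to 314, 417, 547, 716 and 460.0 CPM in GFP+ libraries, against 341, 371, 624, 738 and 640.0 CPM in GFP− libraries.

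Within mice, the mean difference of stromal genes minus that of laminins, in log2 CPM, was 1.41 for mouse 17C1 and -0.01 for 17C2. For the 21A mice it was -1.07 (21A4), -2.14 (21A5) and -0.81 (21A7). It averaged -0.52 ± 1.32 over the 5 mice (SD), so its spread exceeded its mean. Within the series it was 0.70 ± 1.01 in the 2 17C mice and -1.34 ± 0.71 in the 3 21A mice. The laminin part alone was -0.21 ± 0.21 and the stromal part -0.73 ± 1.45 (SD, n = 5), the stromal part having the larger spread between mice. The laminin part averages chains that differed in direction, 3 with a log2 fold change below 0 and 3 above. Over all mice Lama4 was at -1.29 and Lamb1 at -0.91, against 0.65 ± 0.33 for Lama5 (edgeR adjusted p = 0.395). In the 21A mice 4 chains lay below 0, Lama4 at -1.59 and Lamb1 at -1.39 among them, and 2 above, Lama5 at 1.06 and Lamb2 at 0.64. The sum of fibroblast markers differed by 1.01, 0.18, -1.64, -2.61 and -1.23 in log2 CPM between GFP+ and GFP−, beside 1.14, 0.15, -1.43, -2.49 and -1.16 for the sum of stromal genes. Both sums had the same order of mice, and 0 of 14 fibroblast markers tested were called with edgeR (3 lower at an unadjusted p under 0.05 and 3 with DESeq2). In the 17C mice 5 and 4 of the 15 fibroblast markers were at 0 in GFP+ libraries, against 4 and 4 in GFP− libraries. Macrophage, endothelial and mural markers were lower in GFP+ in 4 of 5 mice each, and Schwann cell markers reached at most 1.71 CPM in GFP+ and 2.35 CPM in GFP− libraries. The part of these cells in the matrix differences was not tested.

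**Figure D4:**
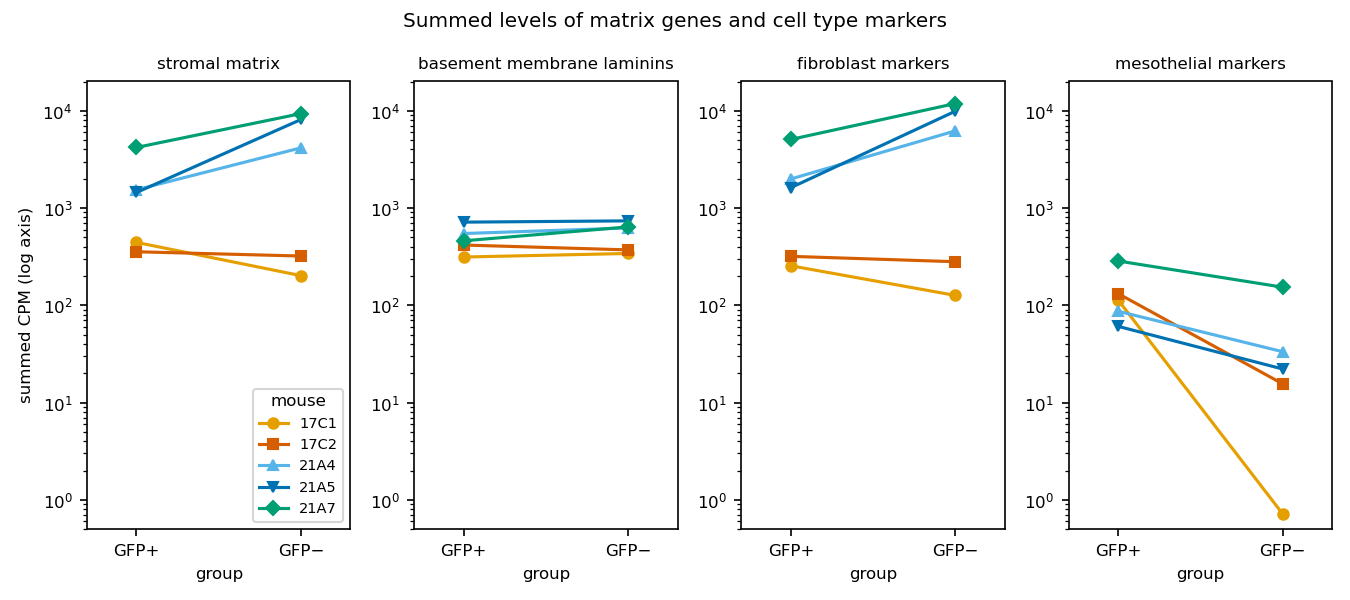
Summed CPM on a log axis of the stromal matrix genes, the basement membrane laminins, 15 fibroblast markers and 6 mesothelial markers, GFP+ left and GFP− right, with 1 line per mouse. Stromal genes and fibroblast markers show the same fan of lines, laminins stay between 314 and 738 CPM, and mesothelial markers fall to the right in every mouse.

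Fitted separately, the 2 mouse series gave opposite counts. In the 21A mice 33 of 44 genes were lower in GFP+ cells and 1, Efemp1, was higher, where 6.72% of all genes were called (4.05% lower and 2.67% higher), and the median log2 fold change of the 44 was -1.62. In the 17C mice 3 of 36 were lower and 8 higher, where 7.52% and 6.08% of all genes were called, and the median was 1.06. That fit rests on 2 mice and 1 residual degree of freedom. The 3 genes lower in both series were Ogn, Sparcl1 and Fbln1, and Efemp1 was higher in both (5.41 in the 17C mice and 1.67 in the 21A mice on the log2 scale).

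The difference between series was tested as an interaction in 1 model. Of the 43 differences, 21A minus 17C, 36 lay below 0 and 7 above, and 1 was higher at an unadjusted p under 0.05. At an adjusted p under 0.05, 18 genes were lower in the 21A than in the 17C mice and 0 higher. Over all genes 4.04% and 3.57% passed (edgeR). By role the 18 were 3 of 7 small leucine-rich proteoglycans (Dcn, Lum, Fmod), 5 of 11 glycoproteins (Sparc, Thbs1, Thbs2, Thbs4, Cthrc1), versican, 5 of 11 elastic fibre and cross-linking genes (Fbln2, Eln, Mfap5, Lox, Loxl2), 3 of 5 proteases and inhibitors (Mmp2, Mmp14, Timp3) and 1 of 8 basement membrane genes (Lamc1). Thbs4 had the greatest difference, -5.36 ± 0.67 (edgeR adjusted p = 0.0138), its fold change being 5.33 for 17C and -0.02 for 21A animals. Eln differed by -4.35 ± 0.51 (edgeR adjusted p = 0.0133). Lamc1 differed by -1.54 ± 0.33 (edgeR adjusted p = 0.0313). For Ogn, Sparcl1, Prelp, Cilp and Fbln1 the interaction did not pass (edgeR adjusted p = 0.856, 0.390, 0.293, 0.583 and 0.626). Without 17C1, 0 of the 43 genes passed, without 21A5 1, and without 21A4 8, where 0%, 0.00847% and 2.94% of all genes passed. Other measures also turned between the series. Summed cardiomyocyte markers differed between GFP+ and GFP− by -1.10, -0.95, 0.36, 1.00 and 1.42 in log2 CPM, and 10 of the 11 had an interaction above 0 at an unadjusted p under 0.05. The mitochondrial share was 49.3% and 47.7% in the 17C GFP+ libraries, against 61.9% and 58.1% in the 17C GFP− libraries. In the 21A mice it was 73.1%, 35.7% and 91.2% in GFP+ libraries, against 35.7%, 26.5% and 9.20% in GFP− libraries. Their part in the series difference was not tested.

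**Figure D5:**
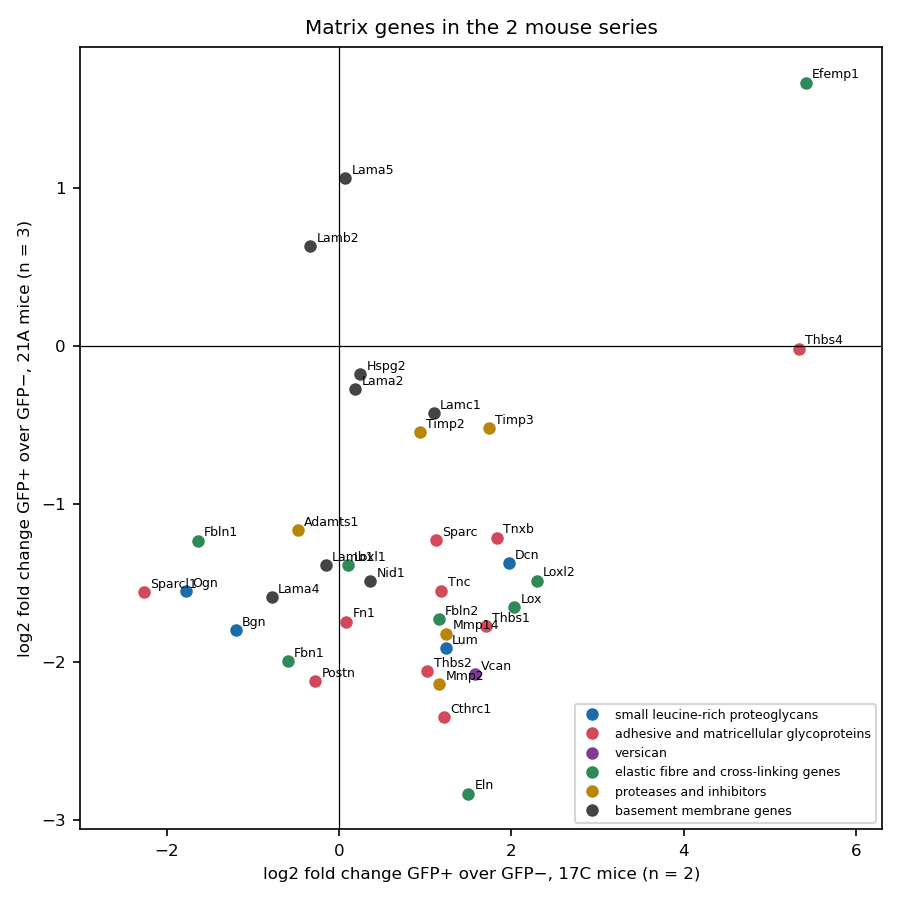
Log2 fold change of GFP+ over GFP− in the 17C mice (x axis, n = 2) and in the 21A mice (y axis, n = 3) for the 36 genes tested in both, coloured by role. Most points lie in the lower right quadrant. Sparcl1, Ogn and Fbln1, called lower in both series, lie lower left, as do Bgn, Postn, Fbn1, Lama4, Lamb1 and Adamts1. Efemp1 lies upper right at 5.41 and 1.67, and Thbs4 far right at 5.33 and -0.02.

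Other matrix genes showed few calls over the 5 mice, where edgeR called 0.858% of all tested genes and DESeq2 7.39%. Among 37 other glycoproteins and proteoglycans tested, 0 passed with edgeR (8 lower and 3 higher at an unadjusted p under 0.05; 6 lower and 2 higher with DESeq2), the nearest being Emilin2 at -1.73 ± 0.32 (adjusted p = 0.0543) and Spp1 (osteopontin) at -2.04 ± 0.44 (adjusted p = 0.0792). Among 29 other proteases and inhibitors, 0 passed with edgeR (4 lower and 1 higher at an unadjusted p under 0.05; 4 lower and 1 higher with DESeq2), the nearest being Adamtsl2 at -3.59 ± 0.68 (adjusted p = 0.0569) and Mmp12, the macrophage elastase, at -2.38 ± 0.58 (adjusted p = 0.118). Of 19 genes for laminin receptors of muscle and the enzymes that modify them, 2 were higher in GFP+ cells and 0 lower. The 2 were the integrin chains Itga3 and Itga7, where edgeR called 0.685% of all tested genes higher and 0.173% lower. Without the block neither Itga3 nor Itga7 passed (edgeR adjusted p = 0.107 and 0.321). The fibroblast markers Dpt and Mfap2 and the mural marker Vtn also stand in the list of other glycoproteins.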

How the data were processed

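The authors deposited 1 table of raw counts, whole numbers of reads for each gene in 10 libraries. Per the labels' protocols, RNA was amplified with SMARTer chemistry and made into Nextera XT libraries, with no strand marking and no molecular identifiers, so floors cover counting error only. Reads went through fastp 0.23.1, STAR 2.7.9a and featureCounts (Subread 2.0.1) with build GRCm39, per the submitters' processing notes; the sources used here give no annotation release or multi-mapping setting, so overlapping and near-identical genes are uncertain.

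Counts were filtered (filterByExpr), TMM-scaled and tested across all genes with edgeR 4.0.16 (R 4.3.3), a quasi-likelihood F-test with mouse as a block and Benjamini-Hochberg adjusted p under 0.05 over all tested genes. The SE is the absolute log2 fold change over the root of F. The tests were checked on simulated counts with known changes, drawn with the dispersions of each test's own design. For the interaction, recovery was partial. No simulated interaction was recovered when counts were drawn with the dispersions of the paired design. That design has no series term, so it does not match the interaction test. With partial recovery, power for series differences is limited, and an interaction that did not pass does not show that the series were alike. DESeq2 1.42.0 and the other settings below were alternatives. The block comes from shared animal identifiers: deviations of same-mouse libraries from group means correlated across 12115 genes at 0.292 (17C1), 0.397 (17C2), 0.161 (21A4), 0.0741 (21A5) and 0.637 (21A7). The 2 mouse series were compared by an interaction term.

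The genes and lists were chosen with earlier results of these data known. Values per library are given for genes past the threshold; per role, the 2 with the highest mean CPM and the 2 with the smallest unadjusted p; and up to 5 per direction with the largest change that moved one way in all 5 mice at a mean of 5 CPM or more. Other named genes were picked after their values were seen. No 2 libraries were identical. The list of other basement membrane genes is not reported here.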

Additional observations from a re-analysis of the deposited data

Results flagged for a closer look

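In 9 of 44 groups of 5 libraries examined, 1 library lay far above the other 4. Each group is the GFP+ or the GFP− libraries of 1 gene chosen by the rule above for values per library. The nominal chance rate is about 1 in 20 groups of alike libraries with normally distributed values. These groups hold unlogged CPM and mix 2 mouse series, so that rate may not hold here. The flags also share libraries, 6 of the 9 being the GFP+ library of 21A7. The GFP+ library of 21A7 was the high one for Dcn (83.1 CPM), Fn1 (1719 CPM), Fbn1 (257 CPM), Fbln2 (190 CPM), Vcan (64.9 CPM) and Timp3 (151 CPM). It also had the largest mitochondrial share, 91.2%, and the highest summed fibroblast markers among GFP+ libraries, 5074 CPM. Mouse 21A5 was the high one for Cilp in both groups, at 20.02 CPM in its GFP+ and 149 CPM in its GFP− library. Efemp1 was highest in the GFP− library of 21A7, at 9.996 CPM, which also had the highest mesothelial markers among GFP− libraries, 154 CPM. The part of those cells, or of that library, in these values was not tested. All these flags rest on TMM-scaled CPM and were not examined at the other scalings.

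The GFP+ over GFP− difference varied between the 2 mouse series in 18 genes, tested as an interaction with edgeR and given as the log2 fold change in 21A minus that in 17C mice. Among proteoglycans it was -3.30 for Dcn, -3.08 for Lum, -4.96 for Fmod and -3.65 for Vcan. Among glycoproteins it was -2.37 for Sparc, -3.49 for Thbs1, -3.09 for Thbs2, -5.36 for Thbs4 and -3.52 for Cthrc1. Among elastic fibre and cross-linking genes it was -2.89 for Fbln2, -4.35 for Eln, -5.34 for Mfap5, -3.67 for Lox and -3.80 for Loxl2. For the proteases and inhibitors it was -3.29 for Mmp2, -3.03 for Mmp14 and -2.26 for Timp3, and for the laminin chain Lamc1 it was -1.54. Adjusted p-values ran between 0.0133 and 0.0484. The fibroblast markers differed between the series too, with GFP− sums of 126 and 281 CPM in the 17C mice and 6220 to 11876 CPM in the 21A mice, and their part was not tested.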

How the results depend on the processing

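The count of 5 called genes depended strongly on the setting. Without the replicate block, that is without pairing by mouse, 0 of 43 genes passed. It was 12 with DESeq2 (11 lower, Efemp1 higher; 7.39% of all genes called), 2 with library totals alone (0.272%), 18 with no filter on low counts (3.13%), 3 with a filter of 5 CPM in 5 libraries (1.77%), 11 in the 17C mice (13.6%) and 34 in the 21A mice (6.72%). DESeq2 size factors and removal of mitochondrial genes gave 5 each. Leaving out each mouse gave 0 to 11: 11 without 17C1 (1.38% of all genes), 0 without 17C2, 21A4 or 21A5 (0, 1 and 6 of all genes called), and 2 (Cilp, Sparcl1) without 21A7 (0.588%). The same 5 genes were among those called with DESeq2, with no filter, and without 17C1. Library totals alone moved the median of all genes to -1.15. The genes' median log2 fold change was 1.06 in the 17C mice, and -1.48 to -0.40 at most other settings; with library totals alone it was -2.08, and in the 21A mice -1.62. The stromal minus laminin contrast was -0.58 to -0.29 across normalizations and filters, 0.70 in the 17C mice and -1.34 in the 21A mice, and -1.01 to -0.12 with a mouse left out; DESeq2 as a tool gives it no separate value. Genes differing between series numbered 28 with no filter (6.63% of all genes), 17 with the stricter filter (14.2%) and 0 to 21 with a mouse left out (0 without 17C1, 8 without 21A4, 1 without 21A5).

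Signs changed as follows (log2 fold change). In the 17C mice Sparc was 1.13, Dcn 1.97, Fn1 0.081, Fbln2 1.15, Lamb2 -0.33, Hspg2 0.24, Vcan 1.58 and Mmp2 1.16. With library totals alone Lamb2 was -0.83, Timp2 -1.15 and Timp3 -0.91, all at or above the shifted median of all genes (by 0.32, 0.0041 and 0.24), so relative to it none was lower. Without the replicate block Timp2 was -0.26 and Timp3 -0.067. In the 21A mice they were -0.55 and -0.52. Timp2 was -0.0028 with no filter and -0.0054 with the stricter filter. With a mouse left out, Sparc ran between -0.70 (without 17C1) and 0.095 (without 21A5), Dcn between -0.81 (without 17C1) and 0.28 (without 21A5), with 0.23 without 21A4, Hspg2 between -0.11 (without 17C2) and 0.079 (without 21A4), Timp2 between -0.26 (without 17C2) and 0.37 (without 21A5), with -0.12 without 17C1, and Timp3 between -0.083 (without 17C1) and 0.69 (without 21A5). The cause was not tested. Low counts in the 17C libraries limit Cilp, Prelp, Fmod, Aspn, Fbln5, Mfap4, Mfap5 and Comp, which were not tested in the 17C mice alone.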
